A study of Mus musculus with 18 samples.

Results

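The genes described here are the Hoxc cluster genes of the mouse, which encode homeodomain transcription factors and lie side by side on chromosome 15. The array measured 7 of them with 11 probe sets, out of 20672 genes and 38089 probe sets that carried 1 gene symbol. Members were taken by symbol, and each gene was represented by its brightest probe set over all 18 arrays. The other probe sets of Hoxc5 and Hoxc6 are given beside it. The order followed is that along the cluster, from Hoxc4 at the 3′ end through Hoxc5, Hoxc6, Hoxc8, Hoxc9 and Hoxc10 to Hoxc13 at the 5′ end. Hoxc11 and Hoxc12, which lie between the last members, were not analysed here.

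Total RNA in 3 groups was hybridised to 18 arrays, each with a label of its own. The labels give mouse numbers, and SCL/LMO1 arrays 7114/3 and 7114/1 share the number 7114 and differ in its suffix. The Idh2R140Q/NHD13 group consisted of 9 arrays of leukemic spleen. These mice carry a mutant of the mitochondrial isocitrate dehydrogenase Idh2 together with NHD13, a transgene for the fusion of the nucleoporin NUP98 with HOXD13, and their T-cell acute lymphoblastic leukemia (T-ALL) is labelled DN1/DN2 after the earliest thymocyte stages. The SCL/LMO1 group consisted of 6 arrays of leukemic thymus with cortical T-ALL, in which the oncogenes SCL and LMO1 are combined, and 3 arrays held thymus of wild-type (WT) mice. The labels name no treatment, and the ages of the mice and the promoters that drive the transgenes are not given in the sources used here. The deposited values are log2 signals, so a difference of 1 is a doubling of signal, and values of different probe sets are not comparable in level. Tissue and genotype go together in the Idh2R140Q/NHD13 group, so spleen and genotype cannot be told apart in either comparison with it. All samples were bulk tissue, in which fewer cells of a type and less RNA per cell cannot be told apart.

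Several arrays stood apart. Idh2R140Q/NHD13 mice 546 and 550 had nearly the same signals (root mean square difference 0.212, and 0.445 or more in each of the other 152 pairs). They may come from 1 animal or from 2, which the files do not show. They were averaged, which left 8 Idh2R140Q/NHD13 samples and 17 samples in all. Mouse 555 of the same group carried markers of kidney tubule: the mean of 10 such genes was 9.91, against 4.92 to 5.19 in the other Idh2R140Q/NHD13 samples, and Umod, a kidney tubule protein, stood at 14.0. Its adipocyte marker mean was 9.56, against 5.16 to 5.61 in the other samples of its group, and its erythroid marker mean was the lowest of its group at 9.42. The differences of each member from SCL/LMO1 and from WT are therefore given also without mouse 555. The counts for gene lists include it. The wild-type thymi varied in adipocyte markers, with means of 11.6, 13.2 and 9.37 in mice 623, 627 and 631. In SCL/LMO1, mouse 6889/1 had a skeletal muscle marker mean of 8.93, against 5.63 to 6.96 in the rest of its group, and mouse 3767 a thymic epithelium mean of 8.63, against 5.16 to 5.97. Leaving out either mouse changed no call of a Hoxc gene. SCL/LMO1 arrays 7114/3 and 7114/1, which share a number, were the closest pair after mice 546 and 550 (root mean square difference 0.445). Whether they come from separate animals is not shown by the labels, and they were kept as separate samples. With both averaged, Hoxc9 lost its call against SCL/LMO1 (limma adjusted p = 0.064). The labelled stages were matched in part by their markers. Kit, the stem cell factor receptor of early thymocytes and other progenitors, had a signal 3.57 log2 units above SCL/LMO1 in the Idh2R140Q/NHD13 samples, whereas Il2ra, a marker of the DN2 and DN3 stages, was lower there (-3.18). Double-positive thymocyte markers had means of 9.56 to 11.4 in SCL/LMO1 and 4.99 to 6.18 in Idh2R140Q/NHD13 samples, and erythroid markers were high in the spleens, at 9.42 to 12.8 against 5.64 to 6.09 in SCL/LMO1 thymi.

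Hox genes are transcribed in the same direction along each cluster, and in the embryo they are switched on in the order in which they lie, starting at the 3′ end. In blood formation, genes of the Hoxa and Hoxb clusters are known for their activity in stem and progenitor cells, and NUP98 fusions for keeping Hox genes active that normally fall silent as cells mature. Genes of the Hoxc cluster are better known from the trunk skeleton, spinal motor neurons, hair and adipose tissue, and in humans HOXC4, HOXC5 and HOXC6 can be transcribed from a shared upstream promoter.

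The start of Hoxc4, the gene with the largest difference between the leukemias among the members, is shown because it opens the 3′ end of the cluster. Sequence was at hand for 1 of the 7 members. It covers 250 bases before to 50 bases after the annotated start in RefSeq (GRCm38.p6, chr15:103034145-103034444, plus strand), and the capitals mark the TAAT core that homeodomains recognise.
Hoxc4 promoter: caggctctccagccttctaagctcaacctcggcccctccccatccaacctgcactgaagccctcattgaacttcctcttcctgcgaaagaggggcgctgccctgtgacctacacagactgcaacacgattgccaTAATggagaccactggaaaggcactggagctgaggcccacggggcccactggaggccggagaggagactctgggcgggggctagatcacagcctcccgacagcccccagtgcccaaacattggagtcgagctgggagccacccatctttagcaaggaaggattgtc
The window had a GC content of 60.3% and 9 CpG, against medians of 52.7% and 7 over 32851 promoters of the same length. A single TAAT was found on both strands together, starting 116 bases before the annotated start, and 58% of all promoters hold 1 or more. The letters TGATNNAT, TGACAG and TATAAA, forms of the PBX-HOX, MEIS and TATA motifs, were not found in this window on either strand. They occur in 8.85%, 19.2% and 13.6% of all promoters.

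In the comparison of both leukemias, 5 of the 7 Hoxc genes were higher in Idh2R140Q/NHD13 and 0 were lower, by limma at an adjusted p under 0.05. Of all 20672 genes 23.7% passed this test in either direction and 11.7% were higher. The change was concentrated in Hoxc4, Hoxc5 and Hoxc8, whose measured signals were 18.4-fold, 14.8-fold and 10.7-fold higher. The SCL/LMO1 means of 5.20, 5.56 and 4.29 were not shown to be above background. They lay below 5.63, the 95th percentile over 71 olfactory and vomeronasal receptor genes, which are mostly silent outside the nose (median 4.03). The folds of these probe sets could therefore be understated, but the other probe sets of Hoxc5 gave smaller folds of 4.45 and 2.66. Hoxc6 and Hoxc9 differed by 1.24-fold and 1.44-fold, and Hoxc10 and Hoxc13 did not pass. The median over the 7 members was a log2 difference of 0.53, against 0.03 over all genes. In 3 members, Hoxc4, Hoxc5 and Hoxc8, every Idh2R140Q/NHD13 sample lay above every SCL/LMO1 sample, which held for 4.74% of all genes in this direction.

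**Figure D1:**
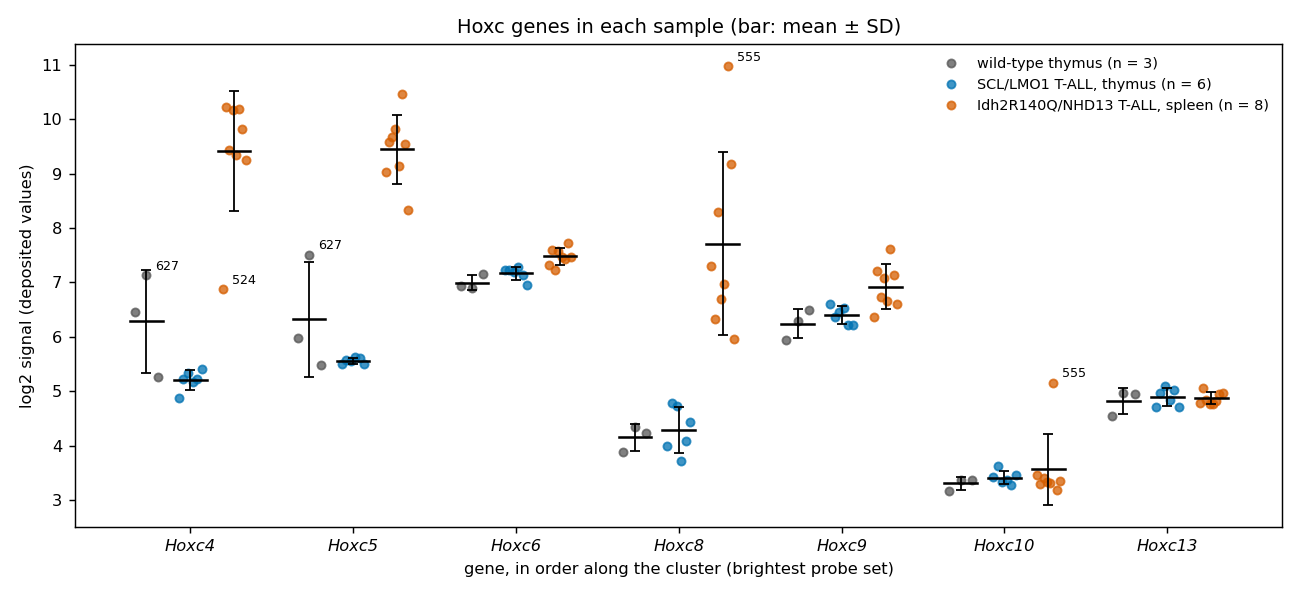
Log2 signal of the 7 Hoxc genes in order along the cluster, 1 point per sample for WT thymus (n = 3), SCL/LMO1 T-ALL in thymus (n = 6) and Idh2R140Q/NHD13 T-ALL in spleen (n = 8), with the mean and SD as bars. For Hoxc4, Hoxc5 and Hoxc8 the Idh2R140Q/NHD13 points lie above all SCL/LMO1 points, while for Hoxc10 only mouse 555, at 5.16, leaves the range of the other groups; levels of different genes are not comparable.

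Against WT thymus, 5 of the 7 were again higher and 0 lower, where 17.4% of all genes passed in either direction and 9.08% were higher. The median over the members was 0.68, against 0.10 over all genes. Idh2R140Q/NHD13 samples lay above all WT samples in 3 members, Hoxc5, Hoxc6 and Hoxc8, as in 6.99% of all genes. The 3 comparisons share samples, and those with Idh2R140Q/NHD13 called the same 5 genes, Hoxc4, Hoxc5, Hoxc6, Hoxc8 and Hoxc9. Between SCL/LMO1 and WT thymus none of the 7 passed by limma, and 0 had an unadjusted p under 0.05, where 11.6% of all genes passed and 5.04% were higher.

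Hoxc4 (probe set 1422870_at), whose product is known in mouse B cells as an activator of the gene for activation-induced deaminase, had a lowest value of 6.88, a median of 9.62 and a highest value of 10.23 in the 8 Idh2R140Q/NHD13 samples. In the 6 SCL/LMO1 samples the corresponding values were 4.87, 5.23 and 5.41. The WT mice 623, 627 and 631 stood at 6.46, 7.13 and 5.26. Both leukemias were thus fully separated, but the lowest Idh2R140Q/NHD13 sample, mouse 524, fell between WT mice 623 and 627. The difference from SCL/LMO1 was 4.21 (SE 0.44, 95% interval 3.27 to 5.14, limma adjusted p = 6.77e-06), and that from WT was 3.13 (SE 0.55, interval 1.96 to 4.30, adjusted p = 0.00144). Without mouse 555 these were 4.10 and 3.02. Without mouse 524 the other 7 Idh2R140Q/NHD13 samples all lay at 9.24 or above, higher than every WT mouse.

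Hoxc5 (1439885_at), the next gene along the cluster, had the smallest spread of the 3 large rises, with an SD of 0.63 over the Idh2R140Q/NHD13 samples against 1.10 for Hoxc4 and 1.69 for Hoxc8. Its lowest, median and highest values were 8.33, 9.55 and 10.46 in Idh2R140Q/NHD13 and 5.50, 5.57 and 5.62 in SCL/LMO1. In WT mice 623, 627 and 631 it stood at 5.98, 7.51 and 5.48. All Idh2R140Q/NHD13 samples lay above all samples of the other groups. The difference was 3.88 from SCL/LMO1 (SE 0.31, interval 3.23 to 4.53, limma adjusted p = 4.14e-07) and 3.13 from WT (SE 0.39, adjusted p = 7.31e-05). Without mouse 555 the differences were 3.74 and 2.98.

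Hoxc6 (1427454_at), known from thoracic patterning and, in humans, as a gene overexpressed in prostate cancer, showed a small difference in its brightest probe set. Values ran from 7.23 over a median of 7.46 to 7.73 in Idh2R140Q/NHD13, and from 6.94 over 7.21 to 7.29 in SCL/LMO1. WT mice 623, 627 and 631 stood at 6.94, 6.90 and 7.15. The leukemias overlapped narrowly, and WT lay below all Idh2R140Q/NHD13 samples. The difference was 0.31 from SCL/LMO1 (SE 0.08, limma adjusted p = 0.0139) and 0.48 from WT (SE 0.10, adjusted p = 0.00615), and 0.31 and 0.49 without mouse 555.

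Hoxc8 (1452412_at), which sets the identity of thoracic vertebrae in the mouse, was the most variable member among the Idh2R140Q/NHD13 mice. Its lowest value there was 5.96 in mouse 570, its median 7.14 and its highest 10.98 in mouse 555, a span of about 5 log2 units. In SCL/LMO1 it ran from 3.72 over 4.25 to 4.78, and in WT mice 623, 627 and 631 it stood at 3.87, 4.34 and 4.23. The Idh2R140Q/NHD13 samples lay above all others in spite of their spread. The difference was 3.43 from SCL/LMO1 (SE 0.62, interval 2.10 to 4.75, limma adjusted p = 0.000878) and 3.56 from WT (SE 0.78, adjusted p = 0.00623), where all WT values too lay below that percentile of receptor genes. Without mouse 555, the mouse with the kidney and adipocyte markers, the differences were 2.96 (SE 0.43, adjusted p = 0.000167) and 3.10.

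Hoxc9 (1449867_at), which gives thoracic motor neurons their identity, had the weakest call of the 5. It ran from 6.36 over a median of 6.90 to 7.62 in Idh2R140Q/NHD13, with the highest value in mouse 555, and from 6.21 over 6.41 to 6.60 in SCL/LMO1. WT mice 623, 627 and 631 stood at 5.95, 6.28 and 6.49. The groups overlapped in both comparisons. The difference was 0.53 from SCL/LMO1 (SE 0.17, limma adjusted p = 0.032) and 0.68 from WT (SE 0.21, adjusted p = 0.0358). Both were smaller without mouse 555, at 0.43 and 0.58 (limma adjusted p = 0.038 and 0.0261). The call was kept in 22 of 31 and 23 of 31 alternative settings. These include a threshold of 0.01, which Hoxc9 did not meet, and repeat the setting without mouse 555. The first call was lost without mouse 525, 531 or 559 of the Idh2R140Q/NHD13 group, or without mouse 7114/3, 6883/2 or 7114/1 of the SCL/LMO1 group (adjusted p = 0.056 to 0.071). The second was lost without WT mouse 623 (0.20) or 627 (0.094), or without mouse 525, 531 or 559 (0.056 to 0.058).

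Hoxc10 (1439798_at), a regulator of lumbar motor neurons, did not pass in any comparison. The values were 3.18 to 3.46 in 7 Idh2R140Q/NHD13 samples and 5.16 in mouse 555, 3.28 to 3.63 in SCL/LMO1, and 3.17, 3.38 and 3.36 in WT mice 623, 627 and 631. A single sample thus stood above the rest. The difference from SCL/LMO1 was 0.15 (95% interval -0.36 to 0.66, limma adjusted p = 0.70) and became -0.08 without mouse 555. That from WT was 0.26 (limma adjusted p = 0.56), and 0.03 without this mouse. Hoxc13 (1425874_at), which acts in hair and nail growth, ran from 4.76 to 5.06 in Idh2R140Q/NHD13 and from 4.71 to 5.10 in SCL/LMO1, and stood at 4.54, 4.98 and 4.95 in WT mice 623, 627 and 631. Its groups overlapped throughout, with a difference of -0.02 between the leukemias (interval -0.21 to 0.17, adjusted p = 0.88) and 0.05 from WT (interval -0.19 to 0.29, adjusted p = 0.77). These differences were -0.02 and 0.06 without mouse 555. All values of both genes lay below the 5.63 of the receptor genes, so they were not shown to be above background. A difference of such genes, if there is one, could be understated.

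Between SCL/LMO1 and WT thymus the differences of Hoxc4 and Hoxc5 were -1.08 (95% interval -2.30 to 0.14, limma adjusted p = 0.24) and -0.76 (interval -1.61 to 0.10, adjusted p = 0.24). The WT mice were spread widely, and from highest to lowest their order was 627, 623 and 631 in Hoxc4 as in Hoxc5. This was also their order in the adipocyte marker mean, at 13.2, 11.6 and 9.37, and mouse 627 was the highest and mouse 631 the lowest of the 3 in 9 of 9 adipocyte genes. The same order held in the marker means of mesenchyme (9.56, 9.01 and 8.13), B cells (8.22, 7.51 and 6.97), megakaryocytes (7.72, 6.89 and 6.31) and macrophages (9.63, 9.47 and 8.69). The part of these markers in the Hoxc4 and Hoxc5 values was not tested. The Hoxc4 difference had an adjusted p of 0.0441 without Idh2R140Q/NHD13 mouse 524, which enters through the shared estimate of spread. Hoxc6, Hoxc8, Hoxc9, Hoxc10 and Hoxc13 differed by 0.17, 0.14, 0.16, 0.11 and 0.07. The interval for Hoxc8, -1.59 to 1.87, leaves room for differences of more than 3-fold either way. For the 5 called members the mean of Idh2R140Q/NHD13 was thus above both other groups, and SCL/LMO1 and WT, the neighbours in that order, did not differ beyond their spread in this test.

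The other probe sets moved in the same direction with different sizes. In a fit over all 38089 probe sets, in which 10.9% were higher than in SCL/LMO1 and 8.4% higher than in WT, all 4 of them were higher in both comparisons. The adjusted p lay between 2.67e-06 and 8.42e-05 against SCL/LMO1 and between 0.000105 and 0.00297 against WT. For Hoxc5, 1456301_at averaged 7.46 ± 0.52 (SD, n = 8) in Idh2R140Q/NHD13, 5.30 ± 0.20 (n = 6) in SCL/LMO1 and 5.43 ± 0.21 (n = 3) in WT, and 1450832_at averaged 6.13 ± 0.46, 4.72 ± 0.21 and 4.88 ± 0.37. Their differences from SCL/LMO1 were 2.15 and 1.41, smaller than the 3.88 of the brightest probe set. For Hoxc6 the order was the opposite. The probe set 1427361_at averaged 6.72 ± 0.39, 5.35 ± 0.35 and 5.44 ± 0.21, and 1427362_x_at averaged 7.01 ± 0.41, 5.48 ± 0.14 and 5.48 ± 0.34. Their differences from SCL/LMO1 were 1.37 and 1.52, against 0.31 in the brightest one. The suffix _x_at marks probes that may also match other sequences. The size of the Hoxc6 change thus depends on the probe set, whereas its direction in both comparisons with Idh2R140Q/NHD13 does not.

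**Figure D2:**
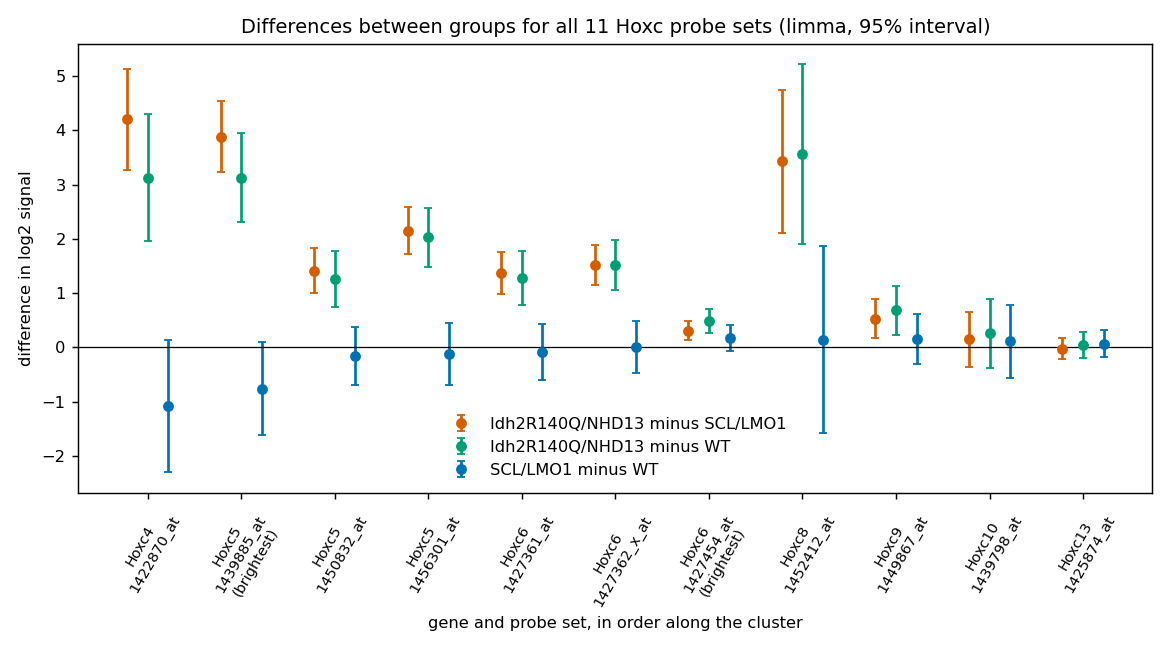
Difference in log2 signal between groups for all 11 Hoxc probe sets in order along the cluster, with 95% intervals from limma (orange, Idh2R140Q/NHD13 minus SCL/LMO1; green, Idh2R140Q/NHD13 minus WT; blue, SCL/LMO1 minus WT). The 3 probe sets of Hoxc6 range from 0.31 to 1.52 and those of Hoxc5 from 1.41 to 3.88 between the leukemias, and every blue interval includes 0.

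Whether neighbours along the cluster changed by unequal amounts was tested by an exact two-sided permutation test of the difference between their changes, adjusted over 6 neighbouring pairs. This test was added after the values were seen. Between the leukemias, Hoxc5 rose by 3.58 log2 units more than Hoxc6 (exact permutation p = 0.000333, the smallest that 3003 splits can give, adjusted p = 0.002). Hoxc6 rose by less than Hoxc8, with a difference of -3.12, and Hoxc8 rose by 2.90 more than Hoxc9 (both adjusted p = 0.00266, exact permutation). With these brightest probe sets the profile along the cluster had a dip at Hoxc6 between higher rises at Hoxc5 and Hoxc8, followed by a step down to Hoxc9. The step from Hoxc5 to Hoxc6 depends on the probe set, since Hoxc5 1450832_at rose by 1.41, no more than Hoxc6 1427362_x_at (1.52) and close to 1427361_at (1.37). With the most variable probe set of each gene, which for Hoxc5 is again 1439885_at, the dip was shallower, at 2.36 and -1.90 (exact permutation, adjusted p = 0.002 and 0.00999). Hoxc4 and Hoxc5 differed by 0.32 (adjusted p = 0.57, exact permutation), and by 0.72 without mice 524 and 555 (0.00779). The changes of Hoxc9 and Hoxc10 differed by 0.38 (0.17), and by 0.51 without mouse 555 (0.0297), and those of Hoxc10 and Hoxc13 by 0.17 (0.80). The probe sets of a gene differ in how strongly they respond, so the test is one of measured signals.

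Against WT the same pairs had differences of 2.65, -3.08 and 2.88 (exact permutation, adjusted p = 0.0364 each), with 165 splits and a smallest possible p of 0.00606. With the most variable probe sets these were 1.60, -2.04 and 2.88, and the adjusted p was 0.0545, 0.0727 and 0.0545. Without mouse 555 they were 2.49, -2.61 and 2.51 (0.0333 each). The dip at Hoxc6 was thus not called against WT with these other probe sets.

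**Figure D3:**
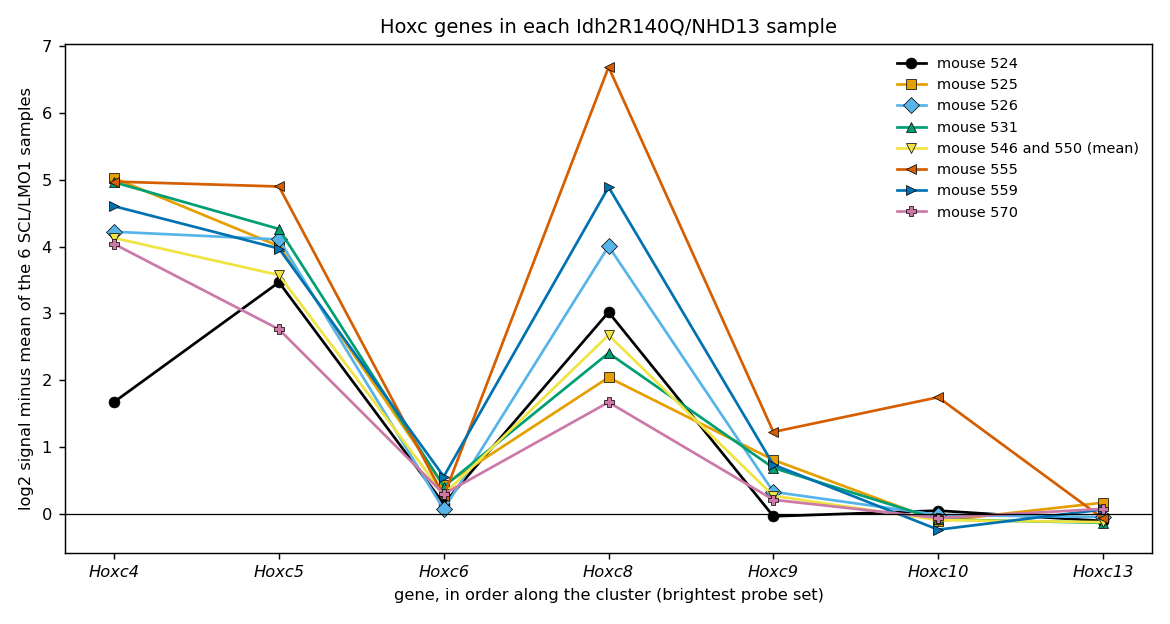
Log2 signal of each of the 8 Idh2R140Q/NHD13 samples minus the mean of the 6 SCL/LMO1 samples, for the 7 Hoxc genes in order along the cluster (brightest probe sets, 1 line per mouse, with mice 546 and 550 averaged). Every line dips at Hoxc6; mouse 524 is low at Hoxc4 and mouse 555 is high at Hoxc8, Hoxc9 and Hoxc10.

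The Idh2R140Q/NHD13 mice differed from each other in which member was high. Mouse 524 had the lowest Hoxc4 (6.88) and Hoxc9 (6.36) of the 8 samples, but a Hoxc5 of 9.03 and a Hoxc8 of 7.31. Mouse 570 had the lowest Hoxc5 (8.33) and Hoxc8 (5.96), with a Hoxc4 of 9.24. Mouse 559 had the highest Hoxc6 (7.73) and a Hoxc8 of 9.18, and mouse 555 the highest Hoxc5, Hoxc8, Hoxc9 and Hoxc10. No mouse was thus low or high in all members. Correlations between neighbours over the 8 samples were computed for 6 pairs, and none passed after adjustment. The closest pair was Hoxc4 and Hoxc5, with r = 0.51 (exact permutation p = 0.21, adjusted 0.42) and rho = 0.79 (exact permutation p = 0.0279, adjusted 0.17), and r was 0.83 without mice 524 and 525. Hoxc8 and Hoxc9 had r = 0.60 (exact permutation p = 0.12, adjusted 0.40; rho = 0.38, p = 0.36), and -0.31 without mice 555 and 559. Hoxc9 and Hoxc10 had r = 0.62 (exact permutation p = 0.13, adjusted 0.40; rho = -0.19, p = 0.66), and -0.60 without mice 524 and 555. The latter relations no longer held without the samples named, mouse 555 among them in both pairs. The remaining pairs, Hoxc5 with Hoxc6, Hoxc6 with Hoxc8 and Hoxc10 with Hoxc13, had r = 0.09, -0.04 and -0.23 (exact permutation p = 0.84, 0.92 and 0.76), with rho = -0.05, -0.31 and -0.29 (p = 0.93, 0.46 and 0.50). Their r was 0.32, -0.33 and -0.38 without the pairs of mice 555 and 570, 526 and 559, and 555 and 559.

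Markers of other cell types moved with some of these values. In mouse 555, which was the highest of 17 samples in 9 of 10 kidney tubule genes at signals of 5.40 to 14.0, Hoxc5, Hoxc8, Hoxc9 and Hoxc10 were the highest of all 17 samples. It was also the highest of the 8 Idh2R140Q/NHD13 samples in 8 of 9 adipocyte genes and in 6 of 10 mesenchyme genes. The part of kidney, adipocyte or mesenchyme RNA in these values was not tested. Without that mouse Hoxc4, Hoxc5, Hoxc6, Hoxc8 and Hoxc9 were called as well, both against SCL/LMO1 and against WT. The remaining Idh2R140Q/NHD13 samples had kidney means of 4.92 to 5.19, and the SCL/LMO1 samples 4.85 to 4.95. Adipocyte means were lower in those samples (5.16 to 5.61) than in SCL/LMO1 (6.32 to 8.14). The mesenchyme means were 6.82 to 8.03 in those samples, 8.97 in mouse 555 and 7.84 to 8.94 in SCL/LMO1. Of those samples only mice 524 (8.03) and 570 (7.88) lay above the lowest SCL/LMO1 mean. Over all 8 samples, 2 of 10 mesenchyme genes were higher and 6 lower than in SCL/LMO1. That is 80% of the list, against 23.7% of all genes. The 2 higher ones were Tcf21 (3.39, limma adjusted p = 7.45e-06) and Tlx1 (0.70, 6.08e-05), transcription factor genes of the spleen mesenchyme. Like Hoxc4, Hoxc5 and Hoxc8, both were higher in every Idh2R140Q/NHD13 sample than in every SCL/LMO1 sample, and their part in the Hoxc values was not tested.

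Blood lineage markers also varied beside the members. T lineage marker means were 6.83 to 10.1 in Idh2R140Q/NHD13, 12.0 to 12.3 in SCL/LMO1 and 11.2 to 12.0 in WT. Every spleen thus lay below every thymus. By limma 9 of 10 T lineage genes were lower than in SCL/LMO1 (90%, against 23.7% of all genes in either direction). Against WT 3 were lower (30%, against 17.4%). The part of this difference in the Hoxc values was not tested. Hoxc8 was lowest in mice 570, 525 and 531, at 5.96, 6.33 and 6.69, and the T lineage marker mean of these mice was 6.83, 7.31 and 7.12, against 9.504 to 10.12 in the other 5 samples. This was noticed after the values were seen, and no test was made. Hoxc4 did not follow this order, with 9.24, 10.23 and 10.17 in the same mice. Erythroid markers, high in all 8 spleens, ran from 9.42 in mouse 555 to 12.8 in mouse 570, the mice with the highest and the lowest Hoxc5 and Hoxc8. Their part in the Hoxc values was not tested, and erythroid signal and group cannot be told apart. Of the other lists, limma called higher between the leukemias 6 of 9 neutrophil, 4 of 5 megakaryocyte and 3 of 5 macrophage genes, and lower 1 of 5 B cell genes. These are 66.7%, 80%, 60% and 20% of the lists. Of all genes 23.7% were called in either direction and 11.7% were higher. No gene of 6 of thymic epithelium, 7 of skeletal muscle or 10 of kidney tubule passed (0, 3 and 1 at an unadjusted p under 0.05).

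**Figure D4:**
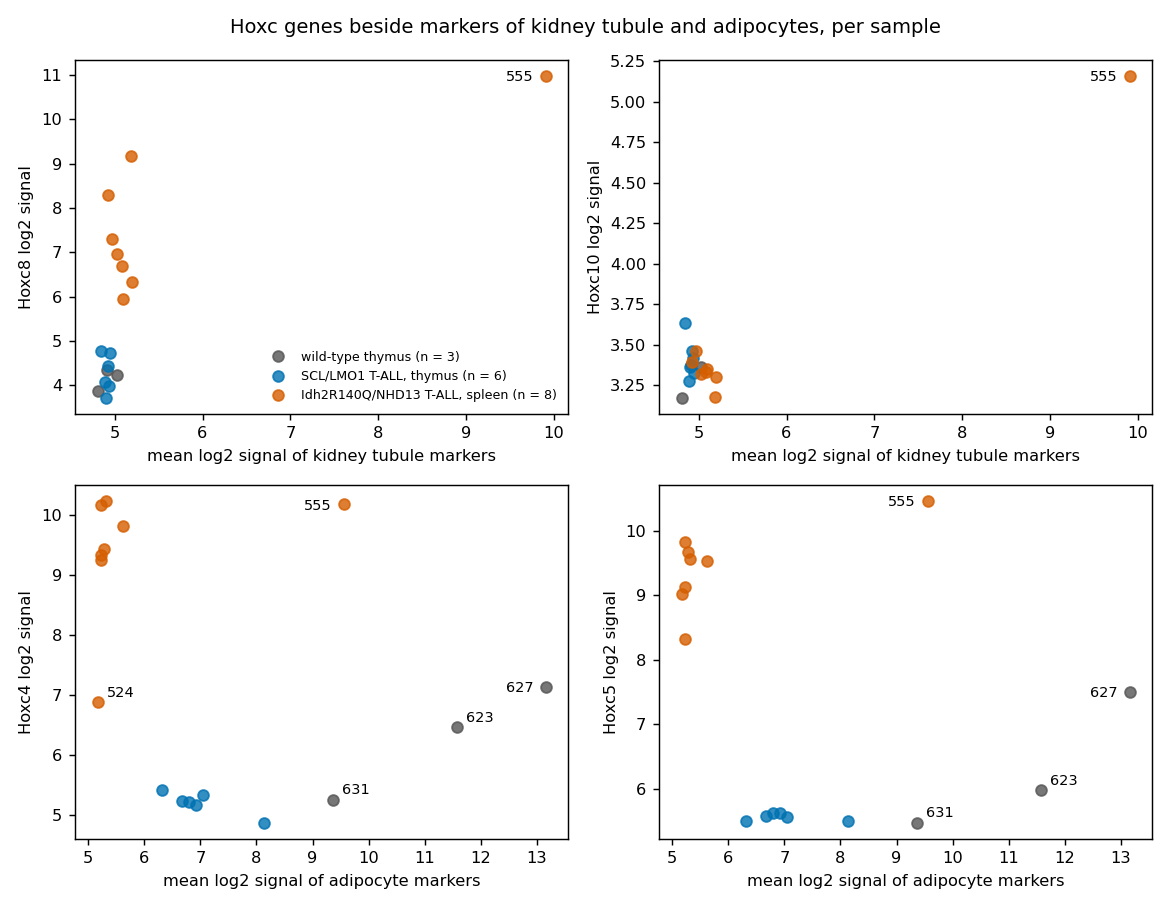
Log2 signal of Hoxc8 and Hoxc10 against the mean log2 signal of 10 kidney tubule markers (top), and of Hoxc4 and Hoxc5 against the mean of 9 adipocyte markers (bottom), 1 point per sample in the colours of WT thymus, SCL/LMO1 and Idh2R140Q/NHD13. Mouse 555 stands alone on the kidney axis at 9.91, and the WT mice 631, 623 and 627 lie in that order on both axes of the lower plots.

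Genes of the other Hox clusters were listed for comparison. Of the 28 measured genes of the Hoxa, Hoxb and Hoxd clusters, 7 were higher and 0 lower in the spleen leukemia than in the thymic one, or 25.0% higher against 11.7% of all genes, with a median of 0.23 against 0.03. Those with the smallest p were Hoxa5 (1.45, limma adjusted p = 1.56e-05), Hoxa7 (1.79, 8.70e-05), Hoxa2 (0.62, 0.00162) and Hoxa9 (4.07, 0.00184), the last a gene of progenitors and of many leukemias. Hoxa2 averaged 5.35 in Idh2R140Q/NHD13 and 4.73 in SCL/LMO1, and Hoxa9 averaged 5.06 in SCL/LMO1. These means lay below the 5.63 of the receptor genes, so they were not shown to be above background. Against WT 3 of the 28 genes were higher and 0 lower, or 10.7% higher against 9.08% of all genes. Between SCL/LMO1 and WT 0 were higher and 3 lower (10.7%, against 11.6% of all genes called in either direction). The differences of Hoxc4, Hoxc5 and Hoxc8 were thus of the size of that of Hoxa9.

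The genes that flank the cluster on chromosome 15 were listed for comparison. Of 23 genes, 7 rose and 2 fell between SCL/LMO1 and Idh2R140Q/NHD13, 7 and 1 against WT, and 4 and 1 between SCL/LMO1 and WT. These are 39.1%, 34.8% and 21.7% of the list, against 23.7%, 17.4% and 11.6% of all genes. The median between the leukemias was 0.00, against 0.03 over all genes. Nfe2, a transcription factor of erythroid cells and megakaryocytes, had the largest difference of the list with 6.35 (limma adjusted p = 9.34e-10), followed in significance by Prr13 (1.79), the integrin gene Itga5 (1.13) and Zfp385a (1.15). Map3k12 (-0.68, adjusted p = 0.013) and the phosphodiesterase gene Pde1b (-0.83, 0.0347) were lower. The listed genes nearest to the cluster did not pass between the leukemias. Calcoco1, beyond the 5′ end, differed by -0.55 (limma adjusted p = 0.0698). Beyond the 3′ end Smug1, a DNA repair glycosylase gene, differed by 0.28 (0.44), and Cbx5, which encodes a heterochromatin protein, by 0.00 (1.00). Hnrnpa1, which encodes an RNA-binding protein and lies between Cbx5 and Nfe2, differed by -0.28 (0.24). Against WT, Cbx5 (0.86) and Hnrnpa1 (0.61) passed in Idh2R140Q/NHD13 (limma adjusted p = 0.0141 and 0.048), and in SCL/LMO1 they did too (0.86 and 0.89).

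HOX cofactors, which bind DNA together with HOX proteins, had 1 higher and 3 lower of 9 members between the leukemias, 1 and 4 against WT, and 1 and 3 between SCL/LMO1 and WT. The shares called were 44.4%, 55.6% and 44.4%, against 23.7%, 17.4% and 11.6% of all genes. Pbx3 was higher by 3.65 (limma adjusted p = 0.000179), at 11.2 ± 0.86 (SD, n = 8) in Idh2R140Q/NHD13 and 7.60 ± 1.47 (n = 6) in SCL/LMO1. Pknox1 (-1.17), Meis3 (-0.60) and Pbx2 (-0.42) were lower. Meis1, the partner best known beside Hoxa9 in leukemia, did not pass between the leukemias (0.61, adjusted p = 0.13) and was lower than in WT in both leukemias (-2.02 and -2.62).

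Trithorax and MLL complex genes, many of whose products keep Hox genes active, were lower in 9 and higher in 1 of 17 members between the leukemias, with a median of -0.38. They had 2 higher and 2 lower against WT and 3 and 0 between SCL/LMO1 and WT. Nsd1 (-1.24, limma adjusted p = 0.00015), Kmt2a (-1.37, 0.00107), Kmt2b (-0.55) and Kmt2d (-0.70), histone methyltransferase genes, were lower, and Mllt3 (0.80, 0.0248) was higher. Polycomb genes, whose products keep Hox genes silent, had 0 higher and 6 lower of 18 between the leukemias (median -0.33), 0 and 3 against WT, and 2 and 0 between SCL/LMO1 and WT. Phc1 (-1.27), Jarid2 (-0.75), Cbx7 (-1.01) and Ezh2 (-0.51), the methyltransferase of the complex, were lower. In these lists 58.8% and 33.3% of the members were called between the leukemias in either direction, against 23.7% of all genes, with most or all of them lower in the leukemia with the higher Hoxc signals. Between Idh2R140Q/NHD13 and WT the shares were 23.5% and 16.7%, against 17.4% of all genes. Between SCL/LMO1 and WT they were 17.6% and 11.1%, against 11.6%. The polycomb shares in these 2 comparisons were thus close to those of all genes.

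The genes whose pattern over the 17 samples was most like that of a member were found by the root mean square difference after each gene was centred on its own mean. The Hoxc members themselves were left out, and so were predicted or unnamed genes, recognised by their symbols. This rule also left out every symbol that starts with C, D or E and a digit. For Hoxc4 the nearest genes were Lmo2 (0.53 log2 units), Cela1 (0.57) and Gcnt1 (0.62), for a member with an SD of 2.17 over the samples. For Hoxc5 they were Ntn4 and Nol4l (0.60 each) and Cela1 (0.63), with an SD of 1.97. Hoxc8 had no ranked gene as near: Efhd1 (0.93), Ntn4 (1.00) and Clec4e (1.04) came first, with an SD of 2.12. Gcnt1 was among the 5 nearest genes of all 3 members. For Hoxc6 and Hoxc9, whose own SDs were 0.24 and 0.43, the nearest were Cyp21a1 (0.081) and Stk32b (0.18). All 17 samples fall into 3 groups, and any gene that separates the spleens from the thymi by a like amount is near under this measure.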

How the data were processed

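TRIzol-extracted RNA, biotin-labelled per the labels' protocols, was measured on 1-colour Affymetrix arrays. The deposited values are log2 signals, and the authors' probe summary and array normalization are not stated in the labels or headers. Values were used without further scaling, with array medians of 5.891 to 6.01. No detection calls were used. Precision is limited by how many arrays there were. Another table's 36 per-array columns, which carry only array numbers, were left out.

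Of 45101 probe sets, 38089 had 1 symbol by the platform annotation, 6948 none and 0 several, and 64 were controls; 1813 symbols were updated through gene identifiers to RefSeq names (35121 matched). Tests used limma 3.58.1 in R 4.3.3, with 1 coefficient per group over 17 samples, moderated variances and p-values adjusted by Benjamini-Hochberg over all 20672 genes. The limma p-values weigh a difference between groups against a moderated spread between samples that the groups share. All 7 members were named; from each list, the up to 4 called genes with the smallest adjusted p between the leukemias and those against its majority, and up to 5 like-patterned genes per called member. Meis1, Hoxa9 in single mice and the nearest flanking genes were named after their values were seen. Exact permutation tests used Python 3.11.15 with numpy 2.4.6. The fits were tested on simulated data. Members, lists and tests were chosen with earlier results of these data known, so no list is independent evidence. Marker lists covered kidney tubule, adipocyte, mesenchyme, skeletal muscle, erythroid, T lineage, double-positive and DN1/DN2 thymocyte, neutrophil, megakaryocyte, thymic epithelium, B cell and macrophage genes.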

Additional observations from a re-analysis of the deposited data

Results flagged for a closer look

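Dixon's gap test was applied to the 22 groups of 4 to 10 samples formed by the 11 probe sets in the Idh2R140Q/NHD13 and SCL/LMO1 groups, and 2 samples exceeded its critical value, where chance alone gives about 1 in 20 groups. Hoxc4 in Idh2R140Q/NHD13 mouse 524 stood at 6.879, with the nearest sample at 9.245 and the highest at 10.23, a gap of 0.705 of the range against a critical 0.526. In the same mouse Hoxc5 and Hoxc8 stood at 9.03 and 7.31, neither the lowest of the group. Hoxc10 in mouse 555 stood at 5.16, with the nearest sample at 3.461, a gap of 0.856 of the range. That mouse also had the kidney tubule and adipocyte means of 9.91 and 9.56, and their part in its Hoxc10 signal was not tested.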

How the results depend on the processing

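The members called higher numbered 5 in each comparison with Idh2R140Q/NHD13 and 0 between SCL/LMO1 and WT. At an adjusted p under 0.01 they numbered 3 between the leukemias, without Hoxc6 and Hoxc9, and leaving out 1 sample gave 4 to 5, 4 to 5 and 0, the lost call being Hoxc9. Hoxc9 also lost it with mice 7114/1 and 7114/3 averaged (0.064, against SCL/LMO1), with only the compared groups (0.10, against WT) and without mice 555, 627 and 6889/1 (0.063 and 0.081). Hoxc4, Hoxc5, Hoxc6 and Hoxc8 passed at 0.05 under every alternative run in both comparisons, with ranges against SCL/LMO1 of 4.09 to 4.57, 1.41 to 4.04, 0.26 to 1.52 and 2.95 to 3.68. The alternatives were quantile normalization, centred medians, a filter on dim genes (15149 left, with 5 of the 7 members, Hoxc10 and Hoxc13 not among them), the mean of or most variable probe set, a variance trend, array weights, fitting the compared pair of groups alone, all 18 arrays separately, mice 7114/1 and 7114/3 averaged, a threshold of 0.01 and leaving out samples. Added after seeing the data were leaving out mice 524 and 555 together, and each other probe set.

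Over all genes, 4902, 3596 and 2390 were called. Array weights gave 6902 against WT and 4827 between SCL/LMO1 and WT. Using only the 2 groups gave 1989 for Idh2R140Q/NHD13 against WT, leaving out mice 524 and 555 gave 6411, and leaving out mice 555, 627 and 6889/1 gave 1060 between SCL/LMO1 and WT. At 0.01 the counts were 2780, 1401 and 889. Leaving out 1 sample gave 4064 to 5357, 1382 to 5288 and 765 to 2989 genes, and 0 called neighbour correlations. WT mouse 623 gave the 1382 and mouse 627 the 765. The causes of these shifts were not tested.

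Directions that turned were all of differences or correlations that had not passed. Hoxc10 between the leukemias became -0.029 with array weights, -0.080 without mouse 555, -0.097 without mice 555, 627 and 6889/1 and -0.10 without mice 524 and 555, and ran from -0.080 to 0.20 without any 1 sample. Hoxc13 became 0.026 without mice 555, 627 and 6889/1, and ran from -0.059 to 0.019 without any 1 sample. Against WT it ran from -0.092 to 0.13 in Idh2R140Q/NHD13 and from -0.069 to 0.15 in SCL/LMO1, lowest without mouse 623. Hoxc6 between SCL/LMO1 and WT was -0.090 in probe set 1427361_at. The r of Hoxc5 and Hoxc6 became -0.00602 with quantile normalization and ran from -0.020 to 0.23 without any 1 sample. That of Hoxc6 and Hoxc8 became 0.78 with the mean of probe sets, 0.72 with the most variable one and 0.064 without mouse 555, and ran from -0.38 to 0.066. That of Hoxc9 and Hoxc10 became -0.76 without mouse 555, and ran from -0.76 to 0.71. The change of Hoxc10 minus that of Hoxc13 became -0.064 against SCL/LMO1 and -0.026 against WT without mouse 555, and -0.10 and -0.062 without mice 524 and 555. The cause was not tested. No paired analysis was possible because the labels number mice, and no number is shared between groups. No detection calls were used. Hoxc10 and Hoxc13 in all samples, Hoxc4, Hoxc5 and Hoxc8 in SCL/LMO1 and Hoxc8 in WT lay below 5.63, the 95th percentile of the receptor genes. The rises of Hoxc4, Hoxc5 and Hoxc8 from SCL/LMO1, and of Hoxc8 from WT, could therefore be understated in the brightest probe sets. The other probe sets of Hoxc5 gave smaller rises. Differences of Hoxc10 and Hoxc13, which lie within that range, could be understated or absent.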

Other observations

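Hoxa9, the Hox gene of another cluster with a difference between the leukemias as large as those of Hoxc4 and Hoxc5, was ordered differently from Hoxc8 among the Idh2R140Q/NHD13 mice. In mouse 570, which had the lowest Hoxc8 (5.96), Hoxa9 was the highest of the group at 12.0. In mouse 559, with a Hoxc8 of 9.18, Hoxa9 was the lowest at 5.62, and in mouse 526, with a Hoxc8 of 8.29, it stood at 6.14. Mouse 555 was high in both, with Hoxa9 at 10.9. In SCL/LMO1 Hoxa9 ran from 4.70 to 5.48. These values were looked up after those of Hoxc8 had been seen, and no test was made.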
